A study of Rattus norvegicus with 6 samples.

Results

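The genes described here build the early secretory pathway: the machinery that brings new proteins into the endoplasmic reticulum (ER), the coats that carry them to the Golgi and back, and the proteins that tether and mark the Golgi itself. They were picked out by gene symbol (Sec, Srp, Srpr, Ssr, Spcs, Rpn, Cop subunits, Tmed, Arf, Arfgap, Golg and Tgoln genes, without the Sec14l genes). This gave 65 genes of the 10411 that were read by a probe set with 1 gene symbol. The symbol rule was set with earlier results of these data known. Each gene was represented by its probe set of highest mean over the 6 arrays. Expression was measured in whole pancreas of 6 rats (Rattus norvegicus), on 1 single-colour array per rat; 3 rats had eaten the control diet and 3 the ethanol diet. The series asks how chronic ethanol consumption affects the pancreas. The sources used here do not give strain, sex, age, ethanol dose or duration, and the labels name no other treatment or allele. The titles number replicates and the design text counts rats, so the replicates are separate animals.

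The acinar cell of the pancreas makes and exports more protein than most other cells, and its ER and Golgi are correspondingly large. A new secretory protein is caught by the signal recognition particle, docks at its receptor and threads through the Sec61 channel, where signal peptidase and oligosaccharyltransferase process it. COPII-coated vesicles then carry it forward from the ER, and COPI coats, recruited by Arf GTPases, carry escaped and recycling proteins back. Golgins are long coiled-coil proteins that hold Golgi membranes together and catch incoming vesicles.

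Values are the deposited intensities, which are whole numbers on a linear scale with background subtracted. They were brought to log2 after a floor at 0 and the addition of 50, so log2 changes, given as ethanol minus control, understate the change of dim probe sets. The arrays had medians of 543 or 544 and maxima from 163449 to 171742, while the brightest member, Ssr4, reached 34786. Several acinar markers lay at or near these maxima. The 3'/5' signal ratio for beta-actin, a measure of RNA integrity, ran from 1.44 to 2.01 in control rats and from 1.54 to 1.78 in ethanol rats. For GAPDH it ran from 1.63 to 2.11 in control rats, highest on control replicate 3, and from 1.52 to 1.87 in ethanol rats. Acinar markers were bright on every array: the summed intensity of the 12 listed markers with a probe set lay between 1392150 and 1401762 in control rats and between 1412727 and 1479182 in ethanol rats. In bulk tissue, fewer cells of a type and less RNA per cell cannot be told apart.

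Of the 65 genes, 61 had a mean at or above the 40th percentile of all probe sets and were tested with limma over all probe sets. One feature shared by several members, and not used to choose them, was a short sequence at the promoter. The letters TGACGTGG form the core of the element bound by the ER stress factors Xbp1 and Atf6 and by related factors of the CREB3 family. In RefSeq windows (GRCr8) from 250 bases before to 50 bases after a gene's start, on either strand, they were found at 7 of the 59 members with a window, or 11.9%. The same letters were found at 187 of 27457 genes in the RefSeq table (0.68%) and at 55 of the 5925 tested genes with a window (0.93%). Members without a window were Golga4, Golga7, Sec24c, Sec24d, Sec61a1 and Sec61a2. The 7 sites are printed below because they include some subunits of a single coat (Copa, Copb1 and Copb2) and the member with the largest change, Golgb1. The others are at Arf1, Arf4 and Srp19. Capitals mark the 8 matched letters, and 10 bases of flank are shown on each side as far as the window reaches. Each is printed on the strand that reads TGACGTGG.
Copa, chr13:87078888-87078915, plus strand: ctggggtagcTGACGTGGagcctttggg
Copb1, chr1:177872829-177872856, plus strand: agtccttggcTGACGTGGaaggaggcgg
Copb2, chr8:108040667-108040694, minus strand: gtggacccacTGACGTGGaacttccggg
Arf1, chr10:44514007-44514034, minus strand: cggcaggcgcTGACGTGGctgccgtcag
Arf4, chr16:1903417-1903444, plus strand: ggccgccgtgTGACGTGGcacagccgaa
Golgb1, chr11:77405957-77405977, minus strand: ttacccgagcTGACGTGGctt
Srp19, chr18:26205723-26205750, minus strand: cgtctcggagTGACGTGGcttgaaggac

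The match of Arf1 began 30 bases before the start, those of Arf4 and Copb2 lay within 10 bases before it, and that of Copb1 spanned it. Those of Copa and Golgb1 began 31 and 40 bases after the start, counting the start base as 1, and that of Srp19 began 155 bases before it. Between diets the log2 changes of these 7 genes ran from -0.94 (Golgb1) to 0.17 (Copb1), with a median of -0.14, against -0.06 for the 48 other tested members with a window. It is described first because, of 6 motifs searched, the ratio of its share of members to its share of tested genes was the highest, so it was chosen after its values were seen. Of the other motifs in the same windows, the cAMP element TGACGTCA matched Arfgap2 and Cope (2 members, 3.4%, against 3.22% of tested genes). CCAAT and CCACG, which occur together in the longer ER stress element, matched 35.6% and 66.1% of members, against 39.21% and 49.86% of tested genes; CCACG overlaps TGACGTGG on the opposite strand. The full ER stress element (ERSE) and its shorter form ERSE-II, both known sites of Atf6 and Xbp1, matched 0 of the 59 members, against 0.22% and 0.10% of tested genes.

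Across the whole set, most members read lower in the pancreas of ethanol-fed rats, by small amounts. The median log2 change of the 61 tested members was -0.15, against -0.01 over the 7106 tested genes, and 41 of 61 (67.2%) lay below 0, against 51.4% of tested genes. A single member passed an adjusted limma p under 0.05: Golgb1 fell. That is 1.64% of the tested members, against 0.436% of tested genes. At an adjusted p under 0.10 the count was 5 of 61 (8.20%, against 2.56%), adding Copg2, Arfgap3 and Sec23b as lower and Tgoln2 as higher. At an unadjusted p under 0.05, 15 members were lower (24.6%, against 11.2% of tested genes) and 2 were higher (3.28%, against 7.66%). The 3 ethanol arrays all lay below the 3 control arrays for 25 members (41.0%, against 15.4%) and above them for 4 (6.56%, against 11%). As the members were chosen with earlier results of these data known, these shares are a description and carry no test of their own. The 15 lower members became 8 without control replicate 1 and 9 without control replicate 3, and 23 with a variance trend. With an array left out, fewer arrays have to be apart, so the counts without overlap can hardly fall in either direction. The 4 members above became 10 without control replicate 1 and 8 without ethanol replicate 1. The 25 below became 25 to 30 with an array left out, which therefore does not show that this count is stable. Under quantile normalization 20 members lay below and 5 above.

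**Figure D1:**
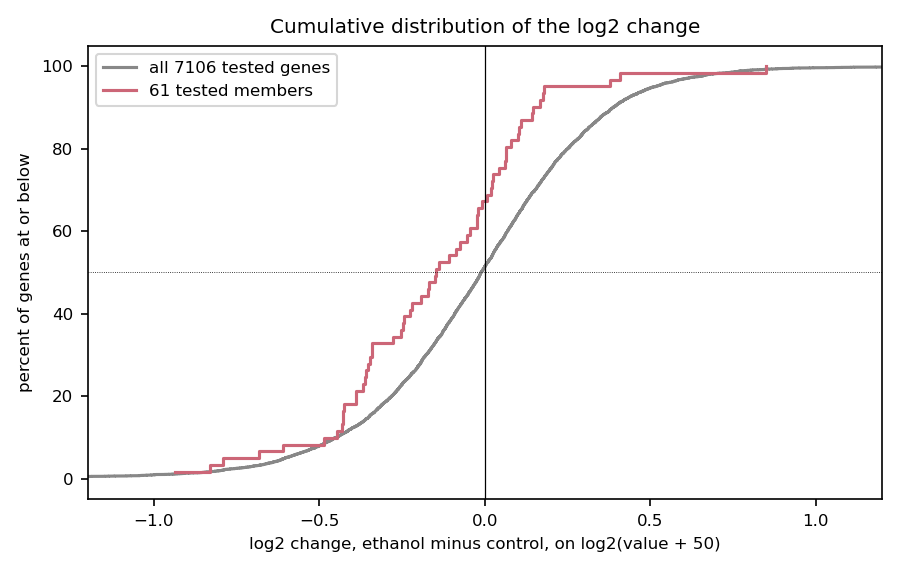
Cumulative percent of genes (vertical axis) at or below a given log2 change, ethanol minus control (horizontal axis, cut at 1.2 on either side), for all 7106 tested genes (grey) and the 61 tested members (red). The members' curve crosses 50% at -0.15 and that of all genes at -0.01.

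Golgi proteins held both extremes of the set. Golgb1, which encodes giantin, a giant golgin anchored in the Golgi membrane, read 1507, 1692 and 1566 in control rats 1 to 3 and 766, 880 and 776 in ethanol rats 1 to 3. Every ethanol array lay far below every control array, and the spread within each diet was small. The mean intensity fell from 1588 ± 94.5 to 807 ± 63.1 (SD, n = 3), or by 0.94 on the log2 scale (SE 0.14, limma adjusted p = 0.0448). Its sign held under all 15 alternatives, with a log2 change of -0.89 or below. The call did not hold when any 1 of the 6 arrays was left out (limma adjusted p from 0.0683 to 0.187), without the intensity filter (0.159), with a constant of 20 (0.0501), or with the replicate block (0.130).

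Tgoln2 lay at the other end of the set. It encodes TGN38, a membrane protein of the trans-Golgi network that cycles to the cell surface and back. Its intensity was 3237, 2597 and 2765 in the control rats and 4895, 5261 and 5417 in the ethanol rats, with no overlap. The means were 2866 ± 332 and 5191 ± 268 (SD, n = 3), a difference of 0.85 on the log2 scale (SE 0.15, limma adjusted p = 0.0571), which did not pass. It passed with a constant of 100 (0.0487), a variance trend (0.00687), a stricter filter at the 60th percentile (0.0269) and the mean of probe sets (0.0476). The array has 2 further probe sets for Tgoln2, both below the intensity filter (at most 528), so this difference rests on 1 probe set. The mean of probe sets is therefore that same probe set, with the fit and adjustment run over genes.

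The remaining golgins were lower or flat, and none passed. Golga7, a small partner of a palmitoyl transferase, read 855, 944 and 711 in control rats and 691, 415 and 332 in ethanol rats (log2 change -0.79, SE 0.25, limma adjusted p = 0.161). Its ethanol replicate 1 lay close to control replicate 3, and the other two lay well below. Golga4, a tether of the trans-Golgi, read 3546, 3078 and 3262 against 2243, 2556 and 2728 (-0.39, SE 0.15), again without overlap. Golga5, a golgin of the Golgi rim, was at -0.26 (SE 0.15) and Golga2, the cis-Golgi golgin GM130, at 0.03 (SE 0.16), with overlapping groups. The 6 Golgi genes had a median log2 change of -0.32, and 4 of them lay below 0.

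**Figure D2:**
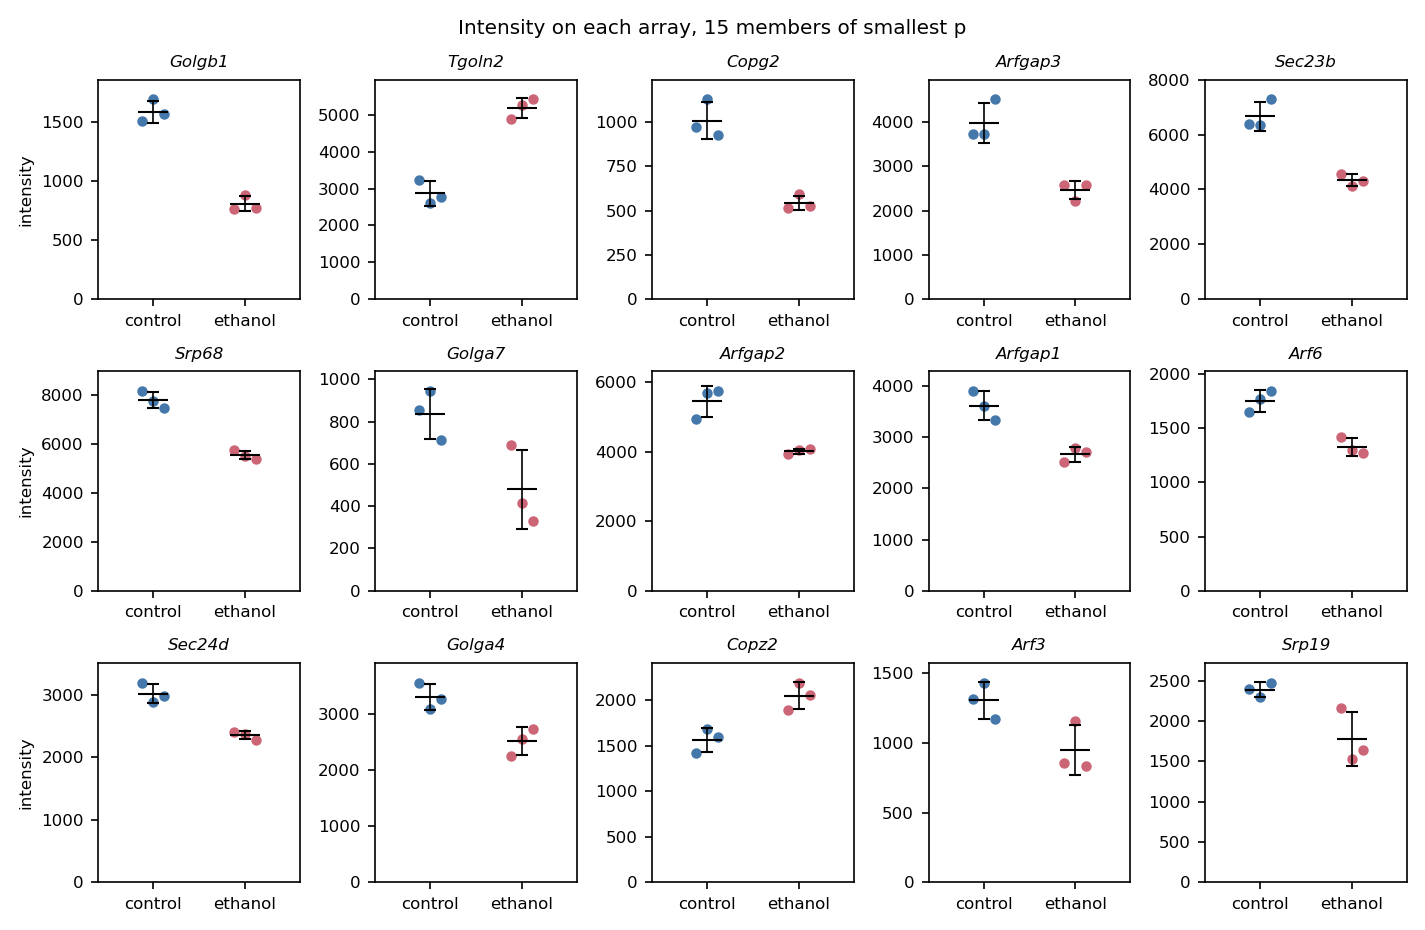
Deposited intensity (vertical axes, linear from 0) on each control (blue) and ethanol (red) array for the 15 members of smallest limma p; bars are the mean and SD of 3 rats. In all 15 panels the diets do not overlap, which a choice by smallest p favours. Tgoln2 and Copz2 are the genes that read higher in ethanol rats.

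Among Arf GTPases and their regulators, all 3 Arfgap genes read lower in ethanol rats, though none passed. These genes encode the GTPase-activating proteins that switch Arf off on Golgi membranes. Arfgap3 read 3727, 3725 and 4512 in control rats and 2574, 2225 and 2578 in ethanol rats (log2 change -0.68, SE 0.15, limma adjusted p = 0.0912). Arfgap2 read 4927, 5678 and 5742 against 3928, 4050 and 4064 (-0.43, SE 0.14, limma adjusted p = 0.166). Arfgap1 read 3896, 3599 and 3328 against 2507, 2785 and 2699 (-0.43, SE 0.14, limma adjusted p = 0.168). On each of the 3 genes the highest ethanol array lay below the lowest control array. The other 2 probe sets of Arfgap1 gave -0.51 and -0.25, also without overlap. Arfgap3 passed with a variance trend or the stricter filter, and its limma adjusted p ran from 0.0267 to 0.248 over the alternatives.

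The Arf GTPases themselves were mixed in size. Arf6, which acts at the plasma membrane and endosomes, read 1644, 1768 and 1840 in control rats and 1414, 1295 and 1266 in ethanol rats (log2 change -0.39, SE 0.14). Arf3 read 1320, 1433 and 1170 against 860, 1159 and 839 (-0.45, SE 0.17), where ethanol replicate 2 nearly reached the lowest control. Arf5 was at -0.37 (SE 0.18). Arf1, the GTPase that recruits COPI to the Golgi, differed little: 13770, 14325 and 12109 against 12135, 12739 and 11287 (-0.15; 95% interval -0.47 to 0.17). Arf4 was at -0.04 (SE 0.15). Arf2 was the single gene of this group above 0, at 0.18 (SE 0.14), and its second probe set gave 0.14. None of the 6 Arf genes passed (limma adjusted p from 0.187 to 0.898). Arf proteins are close relatives, and whether their probe sets took up signal from one another was not tested.

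COPI, the coat of retrograde vesicles, showed no common direction among its 8 genes in the set: 4 lay below 0 and 4 above. Their median was -0.04, and of the 4 above, Copg1 and Copz1 were at 0.01 and 0.02. The delta subunit gene, Arcn1, falls outside the symbol rule and was at -0.46 (SE 0.15), without overlap. Among the 8, Copg2, which encodes the gamma-2 subunit, lay furthest from the median. It read 971, 1128 and 927 in control rats and 515, 591 and 528 in ethanol rats, so that all ethanol values lay far below all control values (1009 ± 106 and 545 ± 40.7, SD, n = 3; log2 change -0.83, SE 0.14, limma adjusted p = 0.0608). It passed with a variance trend, the stricter filter or the mean of probe sets. Copg2 has 1 probe set, so the last setting left its log2 change at -0.83. That setting differs for this gene only in that the fit and adjustment ran over genes. The brighter probe set of its paralogue Copg1 gave 0.01 (SE 0.22), where ethanol replicate 1 read 2432 and the other ethanol arrays 1477 and 1459. The second Copg1 probe set gave -0.38 (SE 0.18), with replicate 1 as the lowest ethanol array, at 1229. Copz2, the zeta-2 subunit, read higher in ethanol rats: 1422, 1682 and 1596 against 1896, 2193 and 2064 (0.38, SE 0.14, limma adjusted p = 0.213). Its paralogue Copz1 read 7865, 8212 and 7773 against 8638, 7442 and 8152, at 0.02 (95% interval -0.29 to 0.33) and turned to -0.03 without ethanol replicate 1.

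The 3 coat subunits with a TGACGTGG match stayed near 0. Copa, the alpha subunit, read 5864, 5680 and 5835 in control rats and 5581, 5092 and 5676 in ethanol rats, a log2 difference of -0.09 (95% interval -0.39 to 0.21). Copb1 was at 0.17 (SE 0.15) and Copb2 at -0.14 (SE 0.13), and Cope, the epsilon subunit, at -0.17 (SE 0.20).

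In COPII, the coat of forward vesicles, 5 of the 6 tested genes lay below 0 and none passed. Sec23b, an inner-coat subunit and GTPase-activating protein of Sar1, read 6391, 6334 and 7280 in control rats and 4574, 4134 and 4319 in ethanol rats. The groups were well apart (6668 ± 531 and 4342 ± 221, SD, n = 3; log2 change -0.61, SE 0.14, limma adjusted p = 0.0958). It passed with the stricter filter or with a variance trend. Sec24d, a cargo-binding subunit, read 3188, 2884 and 2978 against 2403, 2366 and 2276 (-0.35, SE 0.13, limma adjusted p = 0.211), and Sec24c was at -0.36 (SE 0.17), both without overlap. Of the outer cage, Sec13 was at 0.08 (SE 0.14) and Sec31a at -0.05 (SE 0.16), with 0.25 (SE 0.16) on a dimmer Sec31a probe set. Sec16a, a scaffold of ER exit sites, was at -0.17 (SE 0.15). The 6 tested genes had a median of -0.26.

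The p24 proteins, cargo receptors that shuttle between ER and Golgi in both coats, were divided 3 below and 3 above 0 (median 0.02). Tmed3, the brightest probe set of the family, read 11542, 12862 and 11401 in control rats and 9480, 10349 and 10344 in ethanol rats (log2 change -0.24, SE 0.14, limma adjusted p = 0.377). Tmed2 was at -0.25 on its brighter probe set and 0.05 on the other, Tmed4 at -0.01, Tmed9 at 0.04 and Tmed10 at 0.10. Tmed7 shows how far probe sets can differ: 0.41 (SE 0.19) on the brighter and -0.43 (SE 0.19) on the dimmer, so no direction can be given.

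At the front of the pathway, 6 of the 7 genes of the signal recognition particle and its receptor lay below 0, with a median of -0.34, and none passed the adjusted threshold. For the 5 genes of the particle alone the median was -0.36, with 4 below 0. Srp68, which binds the particle's RNA as a pair with Srp72, read 8174, 7769 and 7485 in control rats and 5749, 5532 and 5391 in ethanol rats. The replicates of each diet were close together and the diets far apart (7809 ± 346 and 5557 ± 180, SD, n = 3; log2 change -0.49, SE 0.13, limma adjusted p = 0.131); it passed with a variance trend. Srp72 was lower on all 3 of its probe sets, at -0.36, -0.40 and -0.29. Srp19, which helps to assemble the particle, read 2397, 2297 and 2472 against 2162, 1530 and 1645 (-0.43, SE 0.17), with ethanol replicate 1 close to the controls. Srp14 was at -0.34 (SE 0.18), and its partner Srp9 was the exception at 0.11 (SE 0.14). Of the receptor, Srpra read 11683, 13197 and 10547 against 10463, 9741 and 9914 (-0.23, SE 0.14) and Srprb was at -0.07 (SE 0.15).

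None of the 6 genes of the channel that these factors serve passed, and 4 of them lay above 0. Sec61b and Sec61g, the small subunits of the Sec61 channel, read 13081, 14740 and 14193 against 12259, 15637 and 14842 (log2 change 0.02, 95% interval -0.33 to 0.37) and 16114, 14870 and 12524 against 15423, 15068 and 14642 (0.06, 95% interval -0.28 to 0.40). The sign of both turned when some single arrays were left out. Sec61a1, the pore-forming subunit, was lower without overlap, at 9491, 9376 and 10235 against 8526, 8496 and 7914 (-0.22, SE 0.13, limma adjusted p = 0.409), while its dimmer probe set gave -0.12 with overlap. Its isoform gene Sec61a2 was at -0.15 (SE 0.16). Sec62 was at 0.15 (SE 0.14), with 0.30 (SE 0.15) and no overlap on its dimmer probe set, and Sec63, a co-chaperone of the channel, at 0.06 (SE 0.20), while a dimmer Sec63 probe set read -0.65 (SE 0.25).

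The TRAP complex, which sits beside the channel, spanned 0 with Ssr3 at -0.19, Ssr2 at -0.02, Ssr4 at 0.06 and Ssr1 at 0.18. The 2 dimmer probe sets of Ssr3 gave -0.20 with overlap and -0.51 (SE 0.18, limma adjusted p = 0.189) without. Ssr4 read 32340, 32280 and 30792 in control rats and 31989, 34786 and 32952 in ethanol rats. For Ssr1 every ethanol array lay above every control array, by little: 3299, 3164 and 3017 against 3620, 3459 and 3673 (SE 0.13, limma adjusted p = 0.497). All 5 signal peptidase genes lay below 0 (median -0.28), and none passed. They were led by the catalytic subunit Sec11a at -0.35 (SE 0.15) and by Spcs3 at -0.34 (SE 0.16), with Spcs1 at -0.11 and Spcs2 at -0.02. The other catalytic subunit, Sec11c, read 14438, 12054 and 11837 against 9173, 10522 and 11961, which overlap (-0.28, SE 0.16). Rpn1, a ribophorin subunit of oligosaccharyltransferase, read 12540, 10490 and 14210 against 10556, 12616 and 13393 (-0.02, 95% interval -0.41 to 0.37), and its partner Rpn2 read 11399, 11849 and 9204 against 10909, 12785 and 12000 (0.14, 95% interval -0.22 to 0.50). Both overlapped between diets. The value of Rpn1 turned above 0 when control replicate 3 or ethanol replicate 1 was left out and under quantile normalization. The ER-Golgi SNARE Sec22b read 1834, 1317 and 1095 against 790, 1338 and 996, with overlapping groups (-0.42, SE 0.24), and Sec22a at 0.10 (SE 0.22).

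**Figure D3:**
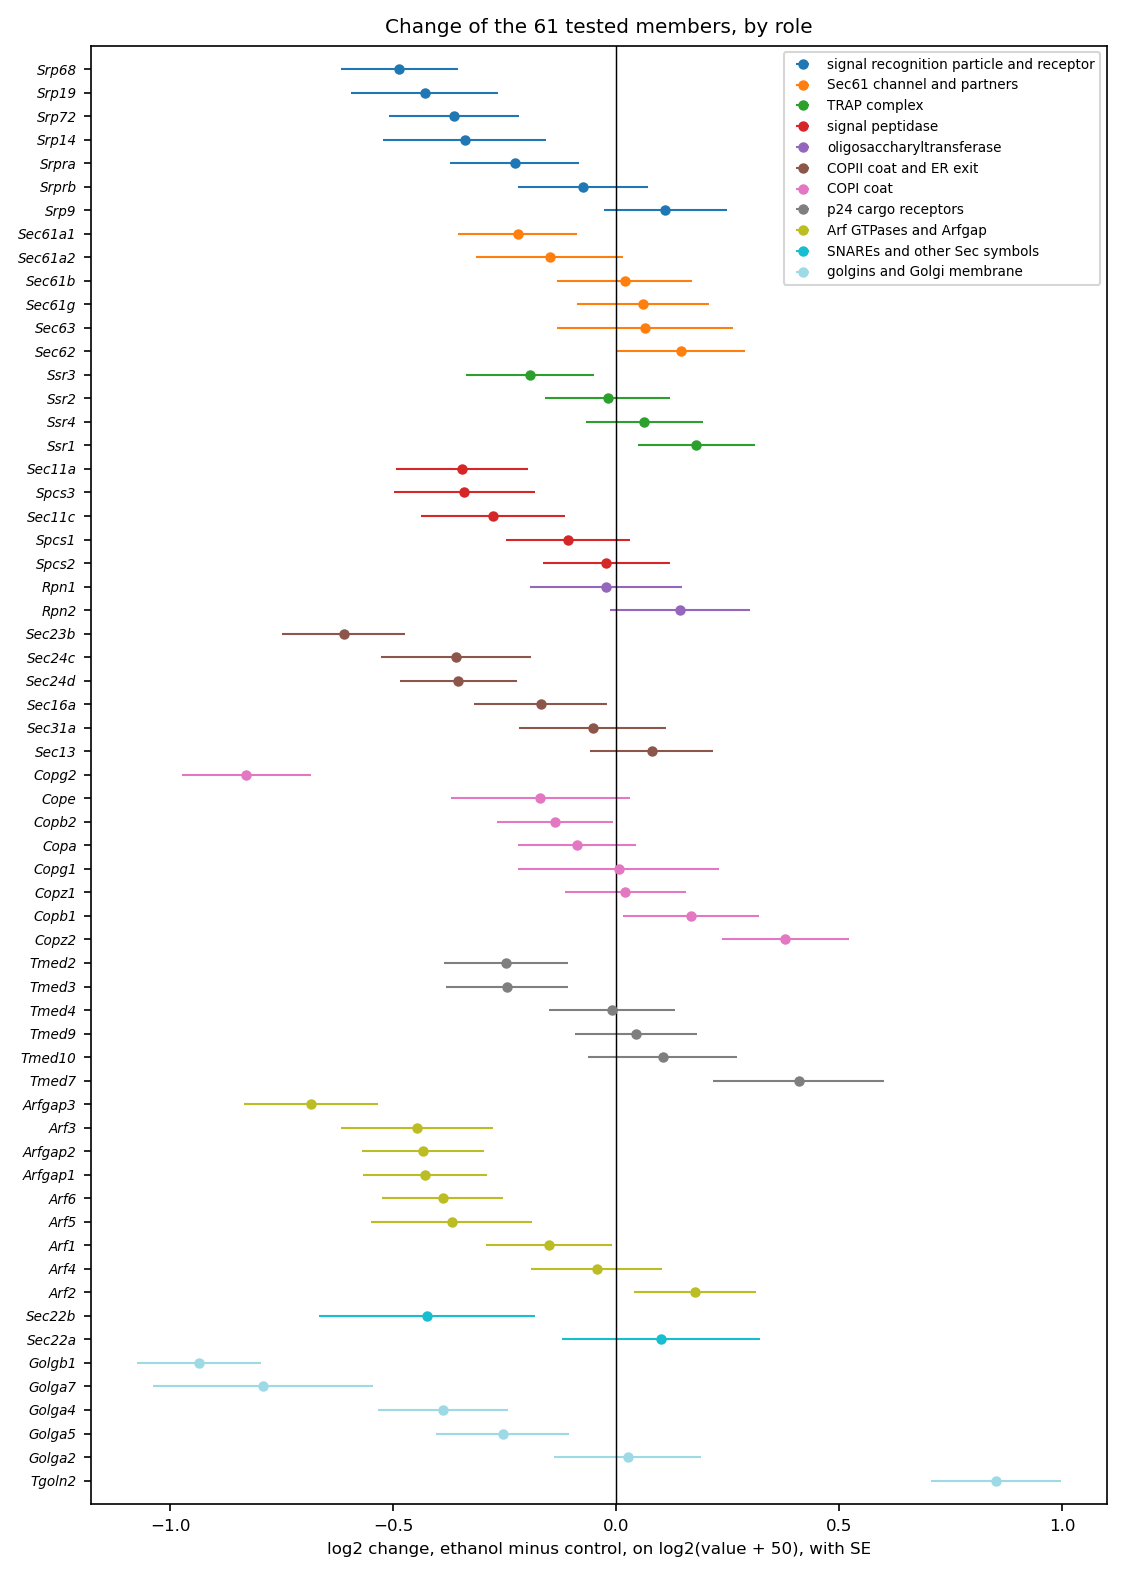
Log2 change, ethanol minus control, with its limma SE (horizontal axis) for each of the 61 tested members, grouped and coloured by role. Golgb1 at -0.94 and Tgoln2 at 0.85 mark the ends; signal peptidase and Arfgap genes all lie below 0, while Sec61, TRAP and p24 genes scatter about it.

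Averaged over its members, each role gave 1 value per array, written as the mean log2 deviation from the 6-array mean. For the Arf and Arfgap genes the control arrays were at 0.16, 0.17 and 0.13 and the ethanol arrays at -0.20, -0.13 and -0.13. For the signal recognition particle and its receptor they were at 0.21, 0.12 and 0.06 against -0.09, -0.13 and -0.17, and for signal peptidase at 0.14, 0.09 and 0.11 against -0.13, -0.07 and -0.13. COPII (control minimum 0.09, ethanol maximum -0.04) and the Golgi proteins (0.06 and -0.05) were also apart. COPI was apart by less, at 0.02 to 0.07 in control rats and -0.05 to -0.04 in ethanol rats. Without its member of largest change, Copg2, COPI overlapped between diets, and so did the Golgi proteins without Golgb1, while the other 4 roles were still apart without theirs. The Sec61, TRAP, oligosaccharyltransferase, p24 and SNARE means overlapped between diets. In each of the 6 roles that were apart, over all its members, the 3 control arrays lay above the 3 ethanol arrays, and no test was made of these means or of a difference between roles.

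**Figure D4:**
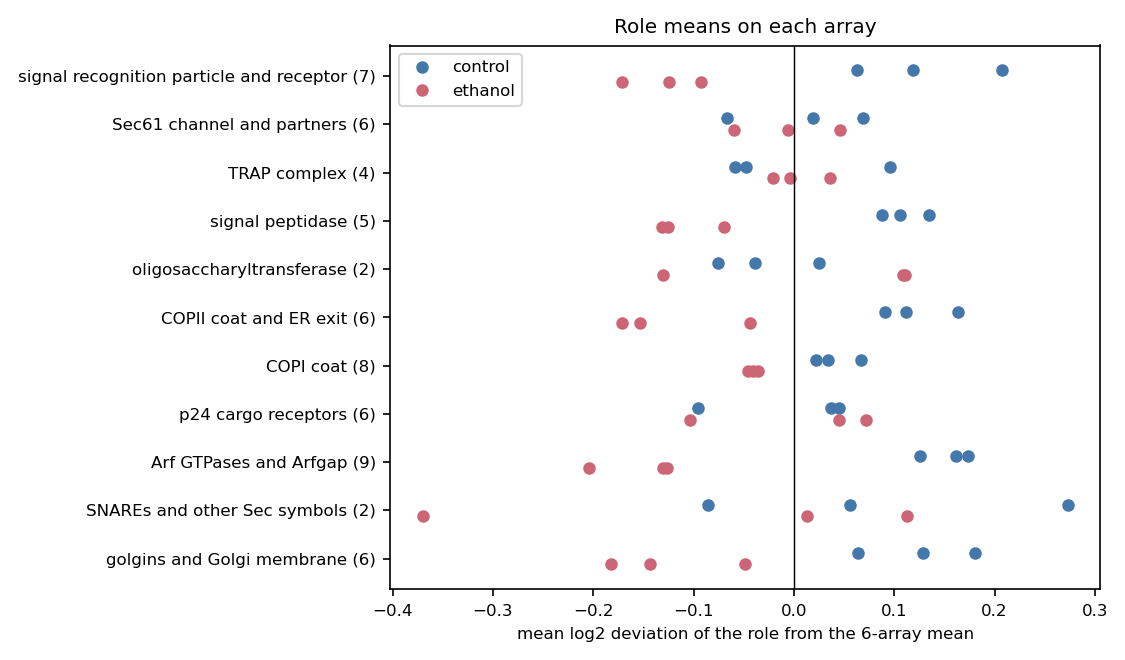
Mean log2 deviation from the 6-array mean (horizontal axis) of the tested members of each role, 1 point per control (blue) and ethanol (red) array, with the number of genes in brackets. The diets do not overlap in 6 roles, of which COPI rests on Copg2 and the Golgi proteins on Golgb1, and overlap in Sec61, TRAP, oligosaccharyltransferase, p24 and SNARE genes.

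Of the 13 members with more than 1 tested probe set, 7 had the same sign on each and 6 did not. Those that differed were Copg1, Sec31a, Sec63, Tmed2, Tmed4 and Tmed7, which have brighter probe sets with changes between -0.25 and 0.41. None of the members lower at an unadjusted p under 0.05 was among them. Of those lower members, only Arfgap1 and Srp72 had more than 1 tested probe set, so agreement could not be checked for the rest.

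**Figure D5:**
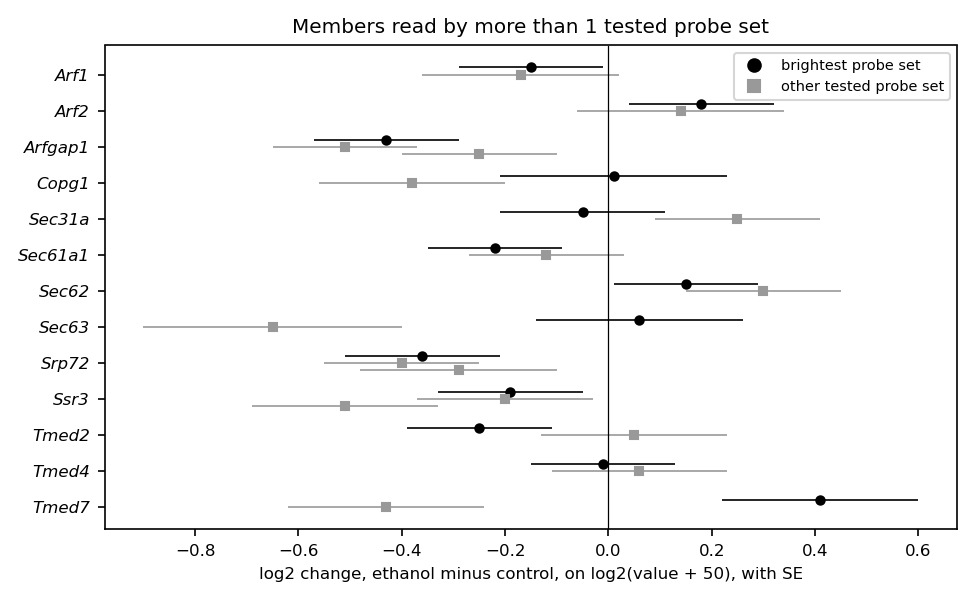
Log2 change, ethanol minus control, with its limma SE (horizontal axis) for every tested probe set of the 13 members that have several; black circles are the brightest probe set, grey squares the others. Arfgap1 and Srp72 lie below 0 on all 3 of their probe sets, while the probe sets of Tmed7 lie at 0.41 and -0.43.

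The 4 members below the intensity filter were Sec16b, Sec24b, Tmed1 and Tmed8. Tmed8 read 576, 338 and 535 in control rats and 245, 267 and 233 in ethanol rats, without overlap. Sec24b read 196, 202 and 373 against 65, 176 and 257, Sec16b 290, 342 and 326 against 183, 381 and 292, and Tmed1 55, 285 and 99 against 379, 101 and 263. These values are close to background and were not tested.

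Other genes of the same pathway, from a list of 123 set up outside the symbol rule, also lay lower more often than higher. Of these, 92 were tested and limma called 0. At an unadjusted p under 0.05, 15 were lower (16.3%, against 11.2% of tested genes) and 5 higher (5.43%, against 7.66%), and the median of the 92 was -0.12. Without overlap between diets, 22 were lower (23.9%, against 15.4%) and 12 higher (13.04%, against 11%). The share higher without overlap was thus not below that of all tested genes, unlike that of the members. Those of smallest p were Bet1, an ER-Golgi SNARE (2314, 2669 and 2985 against 1617, 1752 and 1805; -0.60, SE 0.15, limma adjusted p = 0.110), the tethering subunit Trappc6b (-0.85, SE 0.22) and the trans-Golgi GTPase Arl1 (-0.51, SE 0.15). Arcn1, the delta subunit of COPI, was at -0.46 (SE 0.15), and Preb, which activates Sar1 at the ER, at -0.51 (SE 0.15). Tram1, a partner of the Sec61 channel, was higher: 19400, 16945 and 15965 against 19891, 23269 and 25769 (0.39, SE 0.16, limma adjusted p = 0.240). Of the further oligosaccharyltransferase subunits, Magt1 (0.24), Dad1 (0.21) and Krtcap2 (0.17) lay above 0 without overlap and Stt3b (0.21), Ddost (0.05) and Ostc (-0.02) overlapped, and none passed. The COPII GTPases Sar1a and Sar1b were at 0.01 and -0.09.

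Summed markers of several cell types also differed between the diets without overlap, and their part in the results above was not tested. The summed intensity of the duct list (5 of 8 genes with a probe set) was 15316 to 16713 in control rats and 13095 to 13947 in ethanol rats. That of the erythroid list (4 of 6) was 15433 to 22883 against 25617 to 33312, that of the adipocyte list (5 of 6) 4602 to 7038 against 8211 to 9335, and that of the endothelial list (5 of 7) 3678 to 4316 against 4384 to 4736. The acinar sums given above were likewise apart, higher in ethanol rats. Gene by gene, only Muc1 (duct), Cfd (adipocyte) and Egfl7 (endothelial) were apart in the duct, adipocyte and endothelial lists. In the acinar list Ptf1a, Prss2 and Pnlip were apart, all higher in ethanol rats, and the other genes with a probe set overlapped. Ptf1a read 9361, 8759 and 10111 against 12259, 12386 and 14084. Acta2 of the stellate and fibroblast list was apart and lower, at 305, 401 and 330 against 178, 134 and 267. Muc1 read 9092, 8542 and 9442 against 7526, 7234 and 7654, while Krt19 of the same list read 149, 142 and 252 against 174, 357 and 297. In the erythroid list Hbb, Hba-a3 and Alas2 were apart and Slc4a1 overlapped. The islet (9 of 10), stellate and fibroblast (9 of 9), leukocyte (9 of 10) and plasma cell (1 of 5) sums overlapped, and no listed marker with a probe set was at 0 on all arrays. Limma called 0 of the 44 listed markers that were tested, with 0 lower (against 11.2% of tested genes) and 7 higher (15.9%, against 7.66%) at an unadjusted p under 0.05.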

How the data were processed

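The deposited values are intensities, 1 per probe set and array, on a linear scale; the normalization the authors used is not given in the sources used here. Per the labels' protocols, 5 micrograms of total RNA were turned into biotinylated cRNA. Here a floor of 0 was set, 50 was added and log2 taken. The brighter probe sets, from the 40th percentile of the mean upward (9520 of 15866), were tested for a difference between the 2 diets with empirical Bayes in limma 3.58.1 (R 4.3.3), and p-values were adjusted by Benjamini-Hochberg over all of them. Gene names come from the platform annotation and only from probe sets with 1 symbol. Members and lists were chosen with earlier results of these data known. Genes given with every array are those called, the 14 others of smallest p, the brightest of each role and 8 set by name; others given so were chosen after their values were seen. The 6 promoter motifs were also chosen with results known. The procedure was tested on simulated data. The number of arrays limits the precision (median SE of a log2 change 0.18). Alternatives were other constants, normalizations, filters, a variance trend, a replicate block, a threshold of 0.10, probe set means and each array left out.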

Additional observations from a re-analysis of the deposited data

How the results depend on the processing

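The count of members called was 1 as reported, 2 with a constant of 100 (Golgb1 and Tgoln2), 3 with probe sets averaged per gene, 5 with a filter at the 60th percentile or an adjusted p under 0.10, and 6 with a variance trend; it was 0 with a constant of 20, without the filter, and with each array left out (range 0 to 0), and limma then still placed 8 to 16 members lower at an unadjusted p under 0.05. Over all probe sets the count was 39 as reported, 12 with a constant of 20, 0 without the filter, 134 with the filter at the 60th percentile, 249 with a variance trend, 228 at an adjusted p under 0.10, and 2 to 38 with an array left out. Members lower at an unadjusted p under 0.05 numbered 15 as reported, 23 with a variance trend and 8 to 14 with an array left out; those higher numbered 2 and 1 to 3. With an array left out, members apart between diets numbered 25 to 30 lower (25 as reported) and 4 to 10 higher (4 as reported). Fewer arrays then have to be apart, so these ranges can hardly fall below the reported counts. Under quantile normalization 20 were apart and lower and 5 apart and higher. Members below 0 numbered 39 to 44 with an array left out (41 as reported). The counts of members apart, below 0 and at an unadjusted p were added to the alternatives after seeing the data. The median of the members was -0.15 as reported and -0.17 to -0.12 with an array left out. Quantile normalization and equal medians left the count of members called at 1. The 3 members called with probe sets averaged per gene were Copg2, Golgb1 and Tgoln2. Each has 1 tested probe set, so averaging left their values unchanged, while the fit and adjustment ran over genes. Over all tested members, 17 turned sign under at least 1 alternative, 0 of them at an unadjusted limma p under 0.05 as reported; of the 28 named by rule, 4 near 0 turned: Copz1 to -0.03 without ethanol replicate 1; Rpn1 to 0.01 under quantile normalization and to 0.08 without control replicate 3 or ethanol replicate 1; Sec61b to -0.03, -0.05 and -0.01 without control replicate 1, ethanol replicate 2 and ethanol replicate 3 (range -0.05 to 0.12 with an array left out); and Sec61g to -0.04 without control replicate 3 (range -0.04 to 0.14). The cause of these differences was not tested.

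The labels do not say whether same-numbered rats were paired. Deviations of same-numbered rats correlated at -0.03, 0.03 and -0.14 across probe sets, and those of other pairs at -0.076 to 0.095. With 3 rats per diet these values show no shared effect but cannot decide whether the rats were paired. A fit with the replicate block called 6 probe sets and 0 members (Golgb1 limma adjusted p = 0.130), with 11 members lower and 2 higher at an unadjusted p under 0.05. The block also costs residual degrees of freedom.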

Other observations

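A probe set annotated to both Srprb, the beta subunit of the signal recognition particle receptor, and its neighbour Tf, the iron carrier transferrin, was left out because its signal cannot be assigned to either gene. It read 914, 1344 and 1093 in control rats and 668, 1546 and 1193 in ethanol rats, and the diets overlapped.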
